A study of Mus musculus with 2 samples.

Results

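The genes described here encode integrin chains, laminins and other adhesive glycoproteins of the extracellular matrix. They were listed by name, 38 genes in all (17 integrin chains and 21 matrix genes), by a rule that uses no measured value. The list was nevertheless chosen with earlier results of these data known. A member was read from every probe set whose annotation names that gene and no other, which gave 85 probe sets for 36 of the 38 genes, out of 18193 genes named on the array. Itga11 and Fbn1 had no such probe set in the annotation used and were not analysed here. Of the 36 genes, 33 had their brightest probe set above the signal floor of 21.5 on at least 1 array, out of 12241 measured genes in all. The brightest probe set stands for the gene, and the floor is the median signal of both arrays together.

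Primary osteoblasts, the bone-forming cells, came from the skull caps of 5-day-old C57BL/6 mice. The phosphate group received serum-free medium with 4 mM phosphate for 6 h, after a night without serum. The control group received the same medium with 1 mM phosphate for 6 h, after the same starvation. Both media were at pH 7.2, no genotype or allele beyond the strain is named, and the added phosphate was a sodium salt, so sodium was raised with it. Each group was 1 array, so no difference could be tested between conditions, no p-value is given, and every ratio describes these 2 arrays. Such cultures can hold several types of the cells released from the bone by enzyme digestion. In a bulk sample, fewer cells of a type and less RNA per cell cannot be told apart.

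Integrins are receptors made of an alpha and a beta chain that span the cell membrane. The alpha chain largely sets which matrix protein is bound, and the beta chain connects to the actin cytoskeleton through adaptors such as talin and kindlin. Laminins are trimers of an alpha, a beta and a gamma chain and form sheets that nidogens and perlecan link to the collagen IV network. Fibronectin, vitronectin and several matricellular proteins carry the Arg-Gly-Asp (RGD) motif, which integrins with the alpha5, alpha8 or alphav chain recognise. In bone, such contacts hold osteoblasts to their matrix and pass on mechanical signals.

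The arrays were close to each other in the number of probe sets above the floor and in 3′ to 5′ signal. Their spike-in transcripts were not equal, as described further on. Leaving out control probe sets, 22963 of 45037 lay above the floor on the phosphate array and 22074 on the control array. The 3′ to 5′ signal ratio, a sign of RNA integrity, was 0.769 on the phosphate array and 0.748 on the control array for Gapdh. For actin it was 1.43 on the phosphate array and 1.36 on the control array. All 8 osteoblast markers with a probe set were measured, among them Sp7, Alpl, Ibsp and Col1a1. Of 10 endothelial markers, 9 were below the floor on both arrays by every probe set. For Flt1 the probe set that stands for the gene was also below it, and another of its 4 read 29.7 in phosphate. Of 14 macrophage and osteoclast markers, 12 were measured. So were all 8 chondrocyte markers with a probe set, among them Col2a1, at 4364 in phosphate and 4809 in control. Of 9 pericyte and smooth muscle markers, 8 were measured, with Acta2 at 9328 in phosphate and 10336 in control. Over the whole array, 12241 of 18193 named genes were measured, so a marker above the floor says little alone.

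The members as a group differed little between the arrays. Of the 33 measured, 28 (84.8%) lay within 1.5-fold, 1 of them (Itga7) by a bound, and 1 was 2-fold or more higher in phosphate while 0 were lower by as much. Over all 12241 measured genes, 80.6% lay within 1.5-fold, 2.28% were higher by 2-fold or more and 2.92% were lower by 2-fold or more. At 1.5-fold, 4 members were higher and 1 was lower, where 7.25% of all genes were higher and 12.1% lower. The median log2 ratio of phosphate over control was 0.04 for the members (quartiles -0.15 and 0.31), against -0.06 for all genes. The 14 measured integrin chains had a median of 0.16 with 10 above 0, and the 19 measured matrix genes a median of -0.02 with 9 above 0. Over all 12241 measured genes, 44.1% were above 0. With spike-in transcripts set equal, as described further on, 4 integrin chains and 2 matrix genes remained above 0. The median of all genes was then -0.51, and the share of all genes above 0 was not counted. The shares of members past either fold are within a few genes of the shares over all genes.

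**Figure D1:**
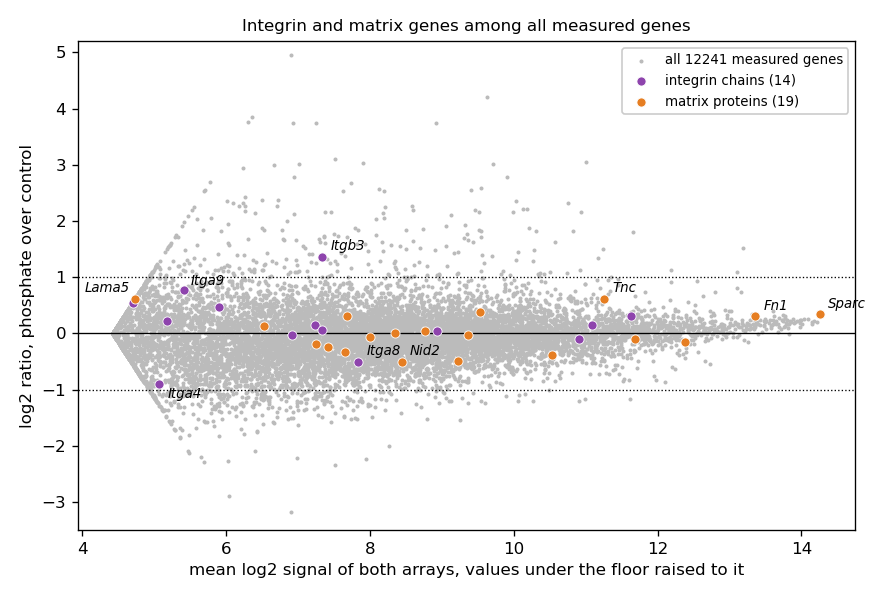
Log2 ratio of phosphate over control (vertical axis) against mean log2 signal of both arrays (horizontal axis) for the 12241 measured genes, with the 33 measured members marked; dotted lines stand at 2-fold. The members lie in the body of the cloud at all signal levels, apart from Itgb3, the member past the 2-fold line.

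The error of a ratio could be judged only from probe sets of the same gene, which is a technical error. Over 4954 genes with several probe sets that both arrays measured above the floor, the standard deviation of the log2 ratio per probe set was 0.32. It was 0.42 where the dimmer signal was under 100, 0.26 for dimmer signals of 100 to 400 and 0.16 for brighter ones. Of 15 members with 2 or more such probe sets, 8 had all of them on the same side of 0 and 10 had them within 0.5 of each other. These counts were not made over all genes. The median range between probe sets of a gene was 0.19 for these members and 0.33 for the 4954 genes. Integrin chain Itgb1, with 3 probe sets between -0.09 and -0.06, and Fn1, with 0.30 and 2.25, differ in how far their probe sets lie apart.

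**Figure D2:**
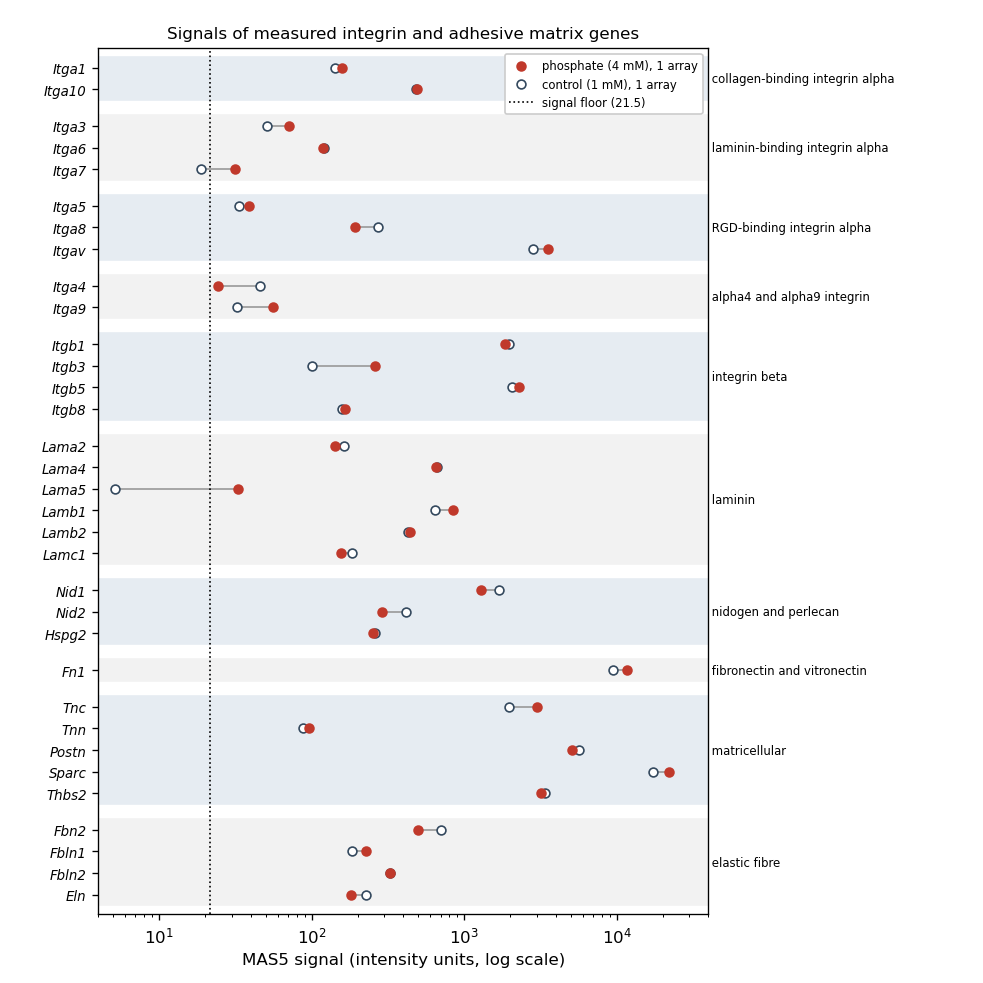
Deposited signals (log axis, linear intensity units) of each member's brightest probe set on the phosphate and control arrays, ordered by role, 1 point per array and no error bars since each group is 1 array; the dotted line is the floor. The points of most genes nearly coincide, and the widest gap with both arrays above the floor is that of Itgb3, at 260 in phosphate and 101 in control.

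Among the integrin beta chains, Itgb3 stood apart. This chain pairs with alphav to form the vitronectin receptor, abundant on osteoclasts, and with alphaIIb on platelets. Its signal was 260 in phosphate and 101 in control, 2.58-fold higher (log2 ratio 1.37), where the technical standard deviation is 0.26 for its brightness class and 0.42 for the class just below. The other Itgb3 probe set was below the floor on both arrays, at 4.14 in phosphate and 10.9 in control, so the difference rests on 1 probe set.

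The other beta chains were nearly level. Itgb1, the common partner of most alpha chains, read 1856 in phosphate and 1982 in control, a log2 ratio of -0.09. Itgb5, which pairs with alphav to bind vitronectin, read 2293 in phosphate and 2056 in control, and its 4 probe sets lay between -0.03 and 0.16. Itgb8, another alphav partner, read 165 in phosphate and 158 in control. Itgb7, a leukocyte chain, was below the floor on both arrays.

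By their brightest probe sets, the RGD-binding alpha chains differed less than Itgb3 but more than the other measured beta chains. Itgav, the partner of Itgb3, read 3540 in phosphate and 2848 in control, 1.24-fold higher (log2 ratio 0.31). A dimmer Itgav probe set read 89.9 in phosphate and 53.8 in control (0.74), and a further one was above the floor in phosphate only. All 3 measured Itgav probe sets were on the higher side. Itga5, the alpha chain of the classical fibronectin receptor, read 39.1 in phosphate and 33.6 in control (0.22). This came from 1 of its 4 probe sets, the only one above the floor, whose suffix marks that it may also match other transcripts. Itga8, which with Itgb1 binds nephronectin, read 191 in phosphate and 271 in control, 1.42-fold lower (-0.51).

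Promoter sequences from RefSeq (build GRCm38.p6, 250 bases before to 50 after the transcription start) were available for 27 of the 36 members, as 31 promoters. Those of Tnc and Itgav, with several probe sets on the higher side, and of Itga8, on the lower side, are printed to show the letters around the start. They were picked with their signals known. For Tnc, which the promoter set held with another start as well, the more downstream start was used. Capitals mark matches, on either strand, to 5 motifs named further on, of which the CArG box is given by name alone. The Tnc promoter lies at chr4:64046887-64047186 on the minus strand, that of Itgav at chr2:83724147-83724446 on the plus strand and that of Itga8 at chr2:12301895-12302194 on the minus strand.
Tnc: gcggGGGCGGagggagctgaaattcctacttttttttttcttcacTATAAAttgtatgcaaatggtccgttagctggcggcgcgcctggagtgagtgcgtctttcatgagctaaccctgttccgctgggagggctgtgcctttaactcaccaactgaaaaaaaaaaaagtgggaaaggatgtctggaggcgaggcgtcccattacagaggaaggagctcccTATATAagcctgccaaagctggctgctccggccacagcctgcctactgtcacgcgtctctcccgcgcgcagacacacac
Itgav: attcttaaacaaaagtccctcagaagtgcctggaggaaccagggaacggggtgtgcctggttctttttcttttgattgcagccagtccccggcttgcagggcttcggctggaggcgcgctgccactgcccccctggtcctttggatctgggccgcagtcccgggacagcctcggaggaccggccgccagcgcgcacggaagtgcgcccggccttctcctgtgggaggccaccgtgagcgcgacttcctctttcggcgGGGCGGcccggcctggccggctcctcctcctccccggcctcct
Itga8: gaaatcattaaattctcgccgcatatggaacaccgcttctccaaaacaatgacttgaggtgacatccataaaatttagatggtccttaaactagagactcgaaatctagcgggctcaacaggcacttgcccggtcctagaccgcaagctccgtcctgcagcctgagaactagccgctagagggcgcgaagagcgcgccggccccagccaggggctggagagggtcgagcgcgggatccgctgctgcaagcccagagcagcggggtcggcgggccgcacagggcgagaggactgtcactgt

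The Tnc window held TATA letters from -29 to -24 and from -205 to -200 and a GC box from -246 to -241, counted from the start. The Itgav window held a GC box from 7 to 12 after the start, and the Itga8 window held 0 matches. The GC box letters, GGGCGG, were in 17 of the 31 member promoters and in 35.7% of all 32851 promoters in the table. TATA letters, searched as TATANA, were in 7 member promoters and 24.7% of all. AP-1 letters, searched as TGANTCA, were in 2, those of Itga3 and Itga9, and in 7.81% of all. The CArG box of serum response factor was in 1, that of Lama2, and in 1.63% of all, and the cyclic AMP response element, TGACGTCA, was in 0 member promoters and 1.79% of all. These are matches of letters only and were not tested for binding.

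Alpha4 and alpha9 form a related pair of chains, and their ratios pointed in opposite directions near the floor. Itga4, which binds fibronectin and VCAM-1 and is best known from leukocytes, read 24.4 in phosphate and 45.8 in control, 1.88-fold lower (log2 ratio -0.91). It was the lowest ratio among the members, and the phosphate signal was just above the floor of 21.5. Only 1 of the 5 Itga4 probe sets was above the floor on either array, so the ratio rests on that probe set. Itga9, a receptor for tenascin C and osteopontin, read 55.6 in phosphate and 32.4 in control, 1.71-fold higher (0.78), by a probe set that may match other transcripts. Another Itga9 probe set read 33.0 in phosphate and 34.8 in control (-0.08). The last one was above the floor in phosphate alone, at least 1.59-fold higher. The direction for Itga9 thus depends on the probe set.

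Collagen-binding alpha chains were level. Itga1, a receptor for collagens I and IV, read 159 in phosphate and 142 in control (log2 ratio 0.15). Itga10, a collagen II receptor known from cartilage, read 492 in phosphate and 480 in control (0.03). Itga2 was below the floor on both arrays.

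Laminin-binding alpha chains were dim in both cultures. Itga3 read 70.7 in phosphate and 50.9 in control (log2 ratio 0.47), close to 1 technical standard deviation for its class. Only 1 of its 3 probe sets was above the floor. Itga6 read 119 in phosphate and 121 in control (-0.02), and its other probe set gave 0.11. Itga7, known from muscle, read 31.4 in phosphate and 18.8 in control, which is under the floor, so it was at least 1.46-fold higher. Itga3 and Itga6 stayed within 1.5-fold, and the bound for Itga7 does not settle whether it did.

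**Figure D3:**
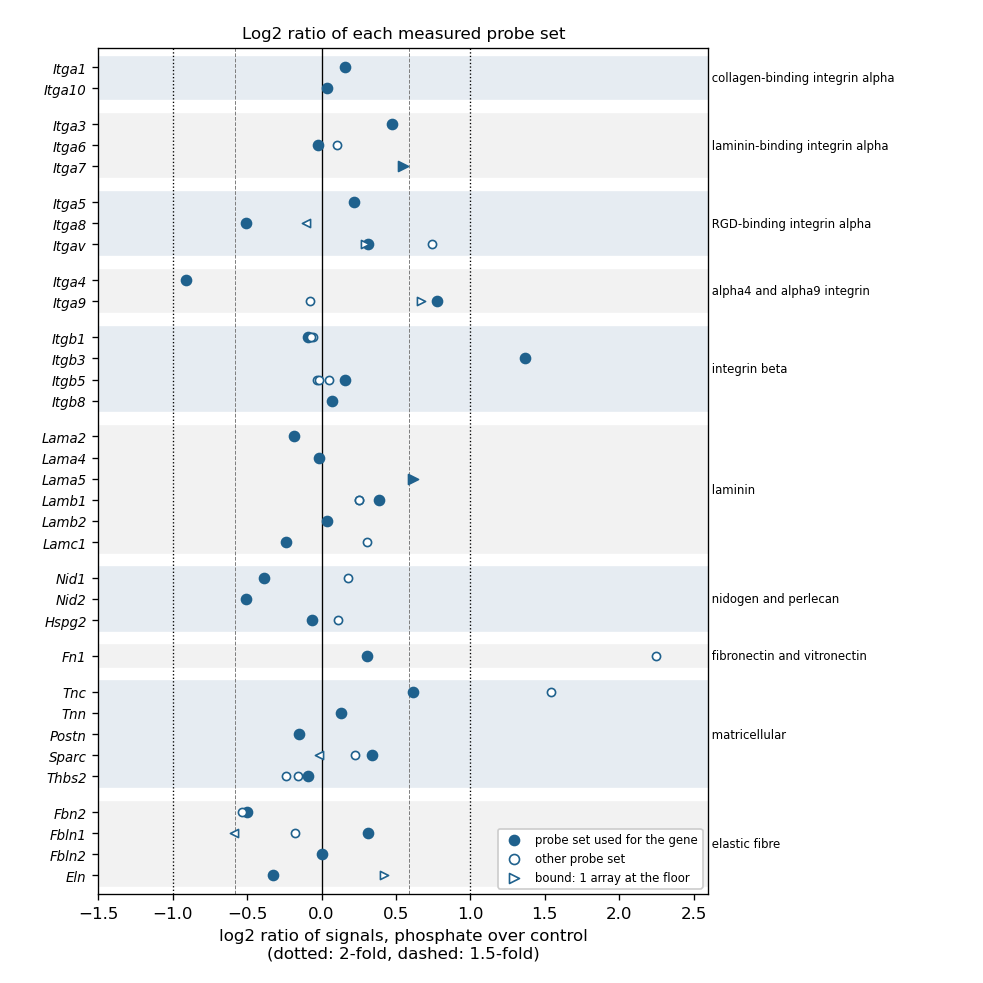
Log2 ratio of phosphate over control for every measured probe set of the members, by gene and role, filled where it is the probe set used for the gene and open otherwise; triangles are bounds with 1 array at the floor, dotted lines stand at 2-fold and dashed lines at 1.5-fold. Probe sets of Itgb1, Itgb5 and Thbs2 lie close together, those of Fn1, Tnc and Itga9 lie far apart, and Itgb3 has 1 measured point.

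The laminin chains were mostly level. Lamb1, the beta1 chain, read 845 in phosphate and 646 in control, 1.31-fold higher (log2 ratio 0.39), and its 3 measured probe sets lay between 0.25 and 0.39. Lamb2, the beta2 chain, read 442 in phosphate and 431 in control (0.04). Lama4, an alpha chain of vessel and fat cell basement membranes, read 654 in phosphate and 663 in control (-0.02). Of these brightest laminins, only Lamb1 differed by more than the technical standard deviation of its class.

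Lama2, the alpha chain of muscle and nerve basement membranes, read 143 in phosphate and 162 in control (-0.18). Lamc1, the gamma1 chain shared by most laminins, read 157 in phosphate and 185 in control (-0.24), while its dimmer probe set read 43.5 in phosphate and 35.2 in control (0.31). Lamc1 therefore had no settled direction. Lama5 read 32.9 in phosphate and 5.15 in control, which is under the floor, so it was at least 1.53-fold higher. Its other 2 probe sets were below the floor on both arrays.

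The linkers of the basement membrane were level or lower in phosphate by their brightest probe sets, with no clear direction for Hspg2. Nid1 read 1298 in phosphate and 1694 in control, 1.30-fold lower (log2 ratio -0.38), but its dimmer probe set read 229 in phosphate and 203 in control (0.18). Nid2 read 291 in phosphate and 415 in control, 1.42-fold lower (-0.51), by its only probe set. Hspg2, which encodes perlecan, read 251 in phosphate and 262 in control (-0.06), with 0.11 from the other probe set, and its ratio turned above 0 after the loess correction. Of these genes, Nid2 was furthest from 0, and 0 of 3 reached 1.5-fold.

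Fibronectin gave the most discordant pair of probe sets among the members. Fn1 read 11644 in phosphate and 9445 in control by its brightest probe set, 1.23-fold higher (log2 ratio 0.30). The other Fn1 probe set read 481 in phosphate and 101 in control, 4.74-fold higher (2.25). The gap between these ratios was 1.94, and only 18 of the 4954 genes with several probe sets (0.363%) had one as large. Whether the probe sets read different Fn1 transcripts was not tested. Vtn, which encodes the liver-derived serum protein vitronectin, was below the floor on both arrays by both probe sets.

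Tnc, the matricellular protein tenascin C that modulates cell adhesion in growing and injured tissue, was higher by both of its probe sets. The brighter one read 3019 in phosphate and 1976 in control, 1.53-fold higher (log2 ratio 0.61). The dimmer one read 93.5 in phosphate and 32.1 in control, 2.91-fold higher (1.54). The gap of 0.93 between them is as large in 8.62% of genes with several probe sets.

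The other matricellular genes were within 1.5-fold. Sparc, or osteonectin, an abundant collagen-binding protein of bone, read 21992 in phosphate and 17412 in control (log2 ratio 0.34), and another probe set gave 0.22. Postn, the periostin of the outer bone layer, read 5061 in phosphate and 5634 in control (-0.15). Thbs2, an inhibitor of vessel growth, read 3187 in phosphate and 3399 in control (-0.09), and its 3 probe sets lay between -0.24 and -0.09. Tnn, a tenascin found in bone, read 96.1 in phosphate and 87.7 in control (0.13). Sparc and Fn1 are the brightest members, and after a loess correction for signal the ratio was 0.13 for Sparc and 0.16 for Fn1.

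Among elastic fibre genes, Fbn2 was lower by both probe sets. Fbn2, the fibrillin of developing microfibrils, read 502 in phosphate and 710 in control, 1.41-fold lower (log2 ratio -0.50), and 193 in phosphate and 279 in control (-0.53) by the other. The ratios of these probe sets were nearly equal, and each exceeds the technical standard deviation of its class (0.16 and 0.26). Eln, which encodes elastin, read 180 in phosphate and 226 in control (-0.33), while a dim probe set was above the floor in phosphate only. Fbln1, a fibulin that binds fibronectin and elastic fibres, read 229 in phosphate and 185 in control (0.31), but another probe set read 186 in phosphate and 211 in control (-0.18). Its last one was above the floor in control only, with a log2 ratio of at most -0.59, so 2 of the 3 Fbln1 probe sets were on the lower side and their median was -0.18. Fbln2 read 327 in phosphate and 326 in control (0.01).

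Genes that act with the members were read from 4 further lists. Of 46 integrin adaptors and signalling genes, 40 were measured, with a median log2 ratio of -0.04, and 0 were higher by 2-fold or more while 3 were lower by as much. Itgb3bp, named for binding the beta3 tail and also a centromere protein, read 80.7 in phosphate and 198 in control (-1.30). Lims2, or PINCH-2, an adaptor of integrin-linked kinase, read 29.7 in phosphate and 71.1 in control (-1.26). Ldb3, a Z-disc protein of muscle, was above the floor in control only, at least 2.15-fold lower. At the upper end were Parvb, the affixin that binds integrin-linked kinase, with 50.5 in phosphate and 30.3 in control (0.74), and the tetraspanin Cd9, with 7009 in phosphate and 4935 in control (0.51).

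Among 11 further integrin chains, 4 were measured. Itgal, a leukocyte chain, was above the floor in phosphate only, at least 1.60-fold higher, and the other 3 were within 1.5-fold. Itga2b, the platelet partner of Itgb3, read 114 in phosphate and 80.4 in control (0.50), and Itgb2, the leukocyte beta chain, read 101 in phosphate and 93.0 in control (0.11). Among 23 other laminins and basement membrane genes, 17 were measured, with a median of -0.05 and 0 counted at 2-fold in either direction. Lama1 read 14.6 in phosphate, under the floor, and 41.6 in control, so it was at least 1.94-fold lower. Above the floor on both arrays, the ends of that list were Ntn4, a netrin that binds laminin, at 0.44, and Pxdn, the peroxidasin that crosslinks collagen IV, at -0.57.

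The list of other adhesive and elastic matrix genes held the largest ratio among these related genes. It had 35 of 40 genes measured, a median of -0.09, 1 gene higher by 2-fold or more and 0 lower by as much. Tgfbi, an RGD-containing matrix protein induced by TGF-beta, read 1770 in phosphate and 648 in control, 2.73-fold higher, and its 4 probe sets lay between 1.16 and 1.58. Thbs1, a relative of Thbs2 that activates TGF-beta, read 3244 in phosphate and 5942 in control, 1.83-fold lower (-0.87), with -0.99 by its other probe set. Ltbp1, which holds TGF-beta in the matrix, read 1078 in phosphate and 691 in control (0.64). Ltbp3, of the same family, was at -0.88, but its probe sets ran up to 0.51.

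**Figure D4:**
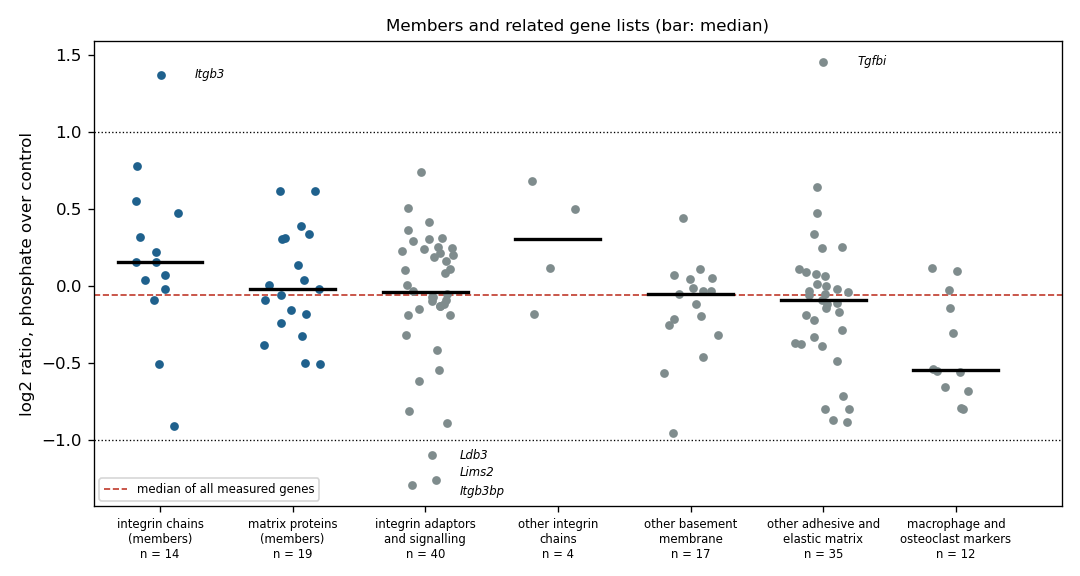
Log2 ratio of phosphate over control for each measured gene of the members (left, integrin chains and matrix genes), 4 related gene lists and the macrophage and osteoclast markers; bars are medians, the dashed line is the median of all measured genes (-0.06) and dotted lines stand at 2-fold. Itgb3 and Tgfbi lie above the upper 2-fold line, Ldb3, Lims2 and Itgb3bp lie below the lower one, and the macrophage and osteoclast markers have a median of -0.55.

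Markers of other cell types were read beside the members. The 12 measured macrophage and osteoclast markers had a median log2 ratio of -0.55, with 10 of 12 below 0. Over all measured genes, 6847 of 12241 were below 0. The summed signal of these markers was 15834 in phosphate against 17249 in control. The osteoclast enzymes Ctsk, at 0.10, and Acp5, at -0.15, were nearly level, and the macrophage chain Itgam and the osteoclast fusion gene Ocstamp were below the floor on both arrays. Itgb3 was higher in phosphate, and the part of macrophages and osteoclasts in its signal was not tested. For Itga4, a chain that blood cells carry, the part of such cells in the lower signal was not tested. The 4 measured Schwann and neural markers were all below 0, with a median of -0.53, and their part in the values of Lama2 and Lims2 was not tested. Chondrocyte markers were nearly level, with a median of -0.04. The 4 measured skeletal muscle markers had the same median but were dim and scattered. They ran from -1.37 for Acta1, at 21.5 in phosphate and 55.9 in control, to 0.65 for Mylpf. Pericyte and smooth muscle markers had a median of -0.05.

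The deposited scaling sets the trimmed mean of both arrays equal, and spike-in transcripts were not equal under it. The 24 poly-A spike probe sets had a median log2 ratio of 0.46, all above 0. The 18 probe sets of the hybridisation spikes, which are added after labelling, had a median of 0.23 (0.14 to 0.47), also all above 0. If the poly-A spikes are set to equal signal, the median of all genes moves to -0.51 and that of the members to -0.42. Under that scaling 13 of the 19 members above 0 turn below 0, among them Itgav, Lamb1, Fn1 and Sparc, while Itgb3 stays higher at 0.90 and Tnc at 0.15. The members lie 0.10 above the median of all genes by the deposited scaling and 0.08 above it by the spikes. Directions in the text are therefore relative to the average transcript of each array.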

How the data were processed

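RNA of 2 cultures of primary mouse osteoblasts, 1 in 4 mM and 1 in 1 mM phosphate, was hybridised to 1 array each. The deposited values are linear intensity values, 1 per probe set, made with MAS5 in GCOS 1.4, per the submitters' processing notes; the trimmed mean is 200 on both arrays. MAS5 combines match and mismatch probes, and dim signals are noisy. Neither detection calls nor probe-level signals were used.

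Of 45037 probe sets other than controls, 34945 named 1 gene, 932 several and 9160 none. Signals under the median of both arrays (21.5) were set to that floor before log2 ratios, phosphate minus control, were taken. Each gene was read from its brightest probe set by mean log2 signal. A ratio with 1 array at the floor is a bound, and genes were counted at 2-fold and 1.5-fold. With 1 array per group no test was possible, and precision is limited by the number of arrays. The counting steps were tested on simulated data with less noise than the dim probe sets here and with changes only in genes above a signal of 100. That run says nothing about ratios near the floor. Python 3.11.15, pandas 2.3.3, numpy 2.4.6 and statsmodels 0.14.6 were used.

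The members and lists were chosen with earlier results of these data known. Every member could be named. From each related list the 2 highest and 2 lowest ratios above the floor on both arrays and any gene at least 2-fold different could be named. Itgal, Lama1 and the markers named lie outside this rule and were chosen after their values were seen. Alternatives were other floors, a pseudocount, quantile, loess and spike scaling, other probe set rules and genes above the floor on both arrays. Leaving out probe sets with the suffix s or x was added after seeing the data.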

Additional observations from a re-analysis of the deposited data

How the results depend on the processing

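The members' median log2 ratio stayed between 0.01 and 0.10 under every alternative except the poly-A spike scaling, which gave -0.42. Under the spike scaling 0 members were at least 2-fold higher, 1 was at least 2-fold lower (Itga4, at -1.09), 1 was at least 1.5-fold higher and 9 were at least 1.5-fold lower. Over all genes that scaling gave 129 of 11854 at least 2-fold higher and 1561 lower, against 279 and 358 of 12241 by the deposited scaling. Of the spikes and the deposited scaling, which is nearer to the amount of RNA per cell was not tested.

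The number of members at least 2-fold higher was 2 with no floor, with a floor at the 35th percentile of both arrays and with a pseudocount, where Lama5 joined Itgb3. It was 3 with the median over each gene's probe sets, where Fn1 (1.27) and Tnc (1.08) joined. Of all 12241 genes, 264 were at least 2-fold higher and 298 lower with that median. At least 1.5-fold higher were 2 members with a 65th percentile floor and 2 after quantile normalization. At least 1.5-fold lower were 0 with that floor and 0 with the pseudocount. The 65th percentile floor left 28 members measured, without Itga4, Itga5, Itga7, Itga9 and Lama5. Over all genes, 517 of 12241 were at least 2-fold higher and 546 lower with no floor. The counts were 557 and 575 of 14768 genes with the lower floor, and 183 and 164 of 9645 with the upper floor. They were 216 and 171 of 12241 with the pseudocount, and 288 and 319 of 12228 after quantile normalization. Counts at 1.5-fold over all genes were not made for any alternative. Without probe sets of suffix s or x, an alternative chosen after seeing the data, Itga9 turned to -0.079. Itgb3 lay between 0.90 and 1.45 under the alternatives run. Signals near the floor limit Itga4, Itga5, Itga7, Itga9 and Lama5. No paired analysis was possible because each group is 1 array.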
